A study of Mus musculus with 2 samples.

Results

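The NF-kB system of TUBO cells was described through 10 genes, chosen by symbol from the 31017 genes of the count table: the Rel subunit genes Nfkb1, Nfkb2, Rela, Relb and Rel, the IkB inhibitor genes Nfkbia, Nfkbib and Nfkbie, the ubiquitin-editing inhibitor gene Tnfaip3, and the kinase gene Ikbkb. All 10 had a row in the table. TUBO is a cloned mouse mammary carcinoma line from a BALB/c mouse that carried the rat Her2/neu oncogene under a mammary tumour virus promoter. The labels give 1 group of 2 libraries from cells that received no treatment and were grown flat on plastic in serum-containing medium, so levels were measured and no condition was set against another. Whether the replicates came from separate cultures is not in the labels, and their spread may be technical only. The libraries held 35453278 counts (replicate 1) and 34098259 counts (replicate 2).

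NF-kB transcription factors are dimers of the Rel family. In resting cells the IkB proteins hold most dimers in the cytoplasm. In the canonical pathway, tumour necrosis factor, interleukin-1 or Toll-like receptors activate the IKK complex, whose kinase IKK-beta (Ikbkb) phosphorylates IkB proteins. These are then ubiquitinated and degraded, and dimers such as that of p65 (Rela) and p50 (made from the Nfkb1 precursor) enter the nucleus. In the non-canonical pathway the kinase NIK (Map3k14) acts through IKK-alpha (Chuk) to process the Nfkb2 precursor, the partner of RelB. Several inhibitors, among them IkB-alpha (Nfkbia) and A20 (Tnfaip3), are encoded by genes that NF-kB itself activates. RNA levels do not show dimer composition, nuclear entry or activity.

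The promoter sequences of the members are shown because kappa B sites in them are the textbook basis of this feedback. RefSeq promoter windows (GRCm38.p6, 250 bases before to 50 after a transcription start) were found for 7 of the 10 genes, and not for Nfkb1, Relb and Ikbkb. The kappa B consensus, a motif of 10 bases searched on both strands, was present in the windows of 5 of these 7 genes, namely Nfkb2, Rel, Nfkbia, Nfkbie and Tnfaip3. It was not found in those of Rela and Nfkbib. Over all 27025 genes with a window, 5.14% had a match. The last 130 bases before the start are given 5′ to 3′ on the gene strand, with bases of matches in capitals. They are for Nfkbia chr12:55492648-55492777 (minus strand), for Nfkbie chr17:45555570-45555699 (plus), for Tnfaip3 chr10:19015411-19015540 (minus), for Nfkb2 chr19:46304607-46304736 (plus), for Rel chr11:23770970-23771099 (minus) and, without a match, for Rela chr19:5637411-5637540 (plus).
Nfkbia: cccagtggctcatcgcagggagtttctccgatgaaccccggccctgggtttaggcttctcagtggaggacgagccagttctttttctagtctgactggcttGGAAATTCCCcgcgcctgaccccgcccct
Nfkbie: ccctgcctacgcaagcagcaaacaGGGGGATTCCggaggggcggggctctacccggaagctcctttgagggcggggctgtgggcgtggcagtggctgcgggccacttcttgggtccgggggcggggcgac
Tnfaip3: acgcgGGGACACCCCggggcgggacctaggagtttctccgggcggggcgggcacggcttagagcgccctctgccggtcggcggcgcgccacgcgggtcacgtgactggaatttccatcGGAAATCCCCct
Nfkb2: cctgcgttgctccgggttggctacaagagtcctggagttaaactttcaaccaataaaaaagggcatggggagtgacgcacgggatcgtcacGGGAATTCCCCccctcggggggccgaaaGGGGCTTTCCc
Rel: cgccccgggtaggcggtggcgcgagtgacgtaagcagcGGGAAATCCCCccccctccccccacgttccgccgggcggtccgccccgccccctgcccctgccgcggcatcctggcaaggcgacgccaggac
Rela: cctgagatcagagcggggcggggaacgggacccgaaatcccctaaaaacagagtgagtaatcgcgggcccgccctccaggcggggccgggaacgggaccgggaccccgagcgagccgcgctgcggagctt

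In Nfkb2 and Rel, matches on the opposite strands overlap, shifted by a single base, and appear as 1 longer run of capitals. The match of Nfkbia spans positions -29 to -20 from the RefSeq start, and the nearer match of Tnfaip3 spans -12 to -3. The GENCODE M21 gene spans, used below for lengths and positions, begin further upstream for Tnfaip3 and Nfkb2. All matches of these genes lie inside their GENCODE spans, while those of Nfkbia, Nfkbie and Rel lie before theirs. Nfkb2 has 3 annotated starts, and each of their windows held a match, while the window at the second start of Tnfaip3 held none. The windows of starts 2 and 3 of Nfkb2 overlap, and the only match of start 3 (chr19:46305705-46305714) is also a match of start 2. A match is a description of the letters in the window and does not show that a factor binds there. A looser form of the motif, with any base allowed at its 5 central positions, was found in 6 of the 7 genes but also in 53.5% of all genes with a window and in 72.7% of the detected ones. Among detected genes of the whole table the median length-divided level, in TPM, that is CPM divided by exon length and rescaled to a fixed sum, was 32.2 TPM for the 559 genes with a consensus match and 29.5 TPM for the 8438 without.

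**Figure D1:**
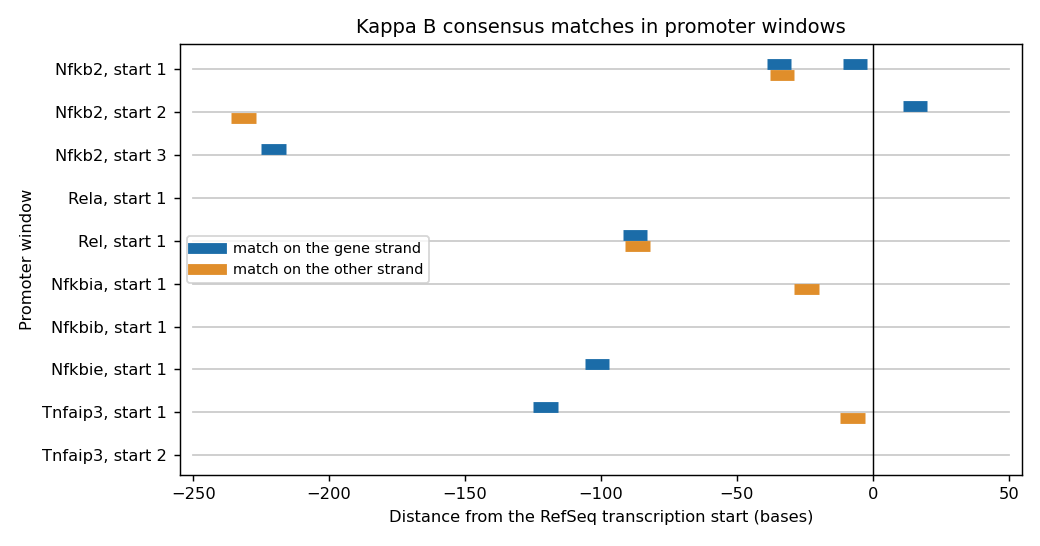
Kappa B consensus matches in RefSeq promoter windows of the members, by distance in bases from the transcription start (x axis) and by start (y axis), with matches on the gene strand in blue and on the other strand in orange. Of 10 windows from 7 genes, 7 held a match, and those of Rela, Nfkbib and the second start of Tnfaip3 held none.

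All 10 genes were detected, meaning 1 CPM (counts scaled to the library total after adjustment by TMM factors) or more in both libraries. So were 37.7% of all genes of the table. CPM is not divided by gene length. Nfkb1, Nfkb2 and Rela reached 100 CPM in both libraries, a level that 7.46% of all genes reached. These were 2315 genes, beside 11692 detected genes. At the lower end, Tnfaip3 at 14.0 CPM was far above the floor of 0.0842 (replicate 1) and 0.0885 CPM (replicate 2), the limit that a count of 0 allows at 3 counts. The precision that depth gives was taken from shares of the unadjusted total of replicate 1. It ran from Nfkb1 at 146 CPM (95% Wilson interval 142 to 150.1) to Tnfaip3 at 14.3 CPM (13.1 to 15.6). These intervals and floors cover counting error only.

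The subunit genes fell into a high and a low range. Nfkb1, which encodes p105, the precursor of p50, had 5180 and 4686 counts in replicates 1 and 2, or 145 and 138 CPM (142 ± 5.06 CPM, mean ± SD, n = 2 here and below). Rela, which encodes p65, the subunit with a strong activation domain, had 4768 and 4335 counts, or 134 and 128 CPM (131 ± 4.2 CPM). Nfkb2, which encodes p100, the precursor of p52, had 3939 and 3708 counts, or 111 and 109 CPM (109.9 ± 0.831 CPM). These 3 were the highest of all members in CPM in each library.

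Relb and Rel were lower. Relb, the p52 partner of the non-canonical pathway, had 775 and 811 counts, or 21.7 and 23.9 CPM (22.8 ± 1.53 CPM). Rel, which encodes c-Rel, a subunit best known from lymphoid cells, had 1083 and 1009 counts, or 30.4 and 29.8 CPM (30.1 ± 0.447 CPM). The ranges of the low pair did not overlap those of the high trio in either library. In bulk RNA a lower level in all cells and expression in fewer cells cannot be told apart. Of 10 leukocyte marker genes Cd68 alone was detected (9.43 ± 0.116 CPM), and Csf1r (18 and 15 counts), the B cell gene Cd79a (2 and 6 counts) and Itgam (0 and 1 counts) were below 1 CPM. Together the 10 genes had a summed level of 10.1 CPM (replicate 1) and 10.0 CPM (replicate 2). No count was found for the other 6, which include the macrophage genes Adgre1 and Lyz2. Among these 6 are also the pan-leukocyte gene Ptprc, the T cell gene Cd3e and the B cell gene Ms4a1, which fall outside the naming rule and were chosen after their values were seen. The part of leukocytes in the level of Rel was not tested. The 5 epithelial markers Krt18, Epcam, Krt7, Cdh1 and Krt8 were all detected, at 684 CPM or more, and none of 6 fibroblast and endothelial markers was. Of these, Col1a1 had 37 and 18 counts, Pecam1 had 6 and 8, and Col1a2, Dcn, Pdgfrb and Cdh5 had no count.

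Among the inhibitors Nfkbia led. It encodes IkB-alpha, the fast-turnover inhibitor of p65 and p50 dimers, and had 1848 and 1823 counts, or 51.8 and 53.8 CPM (52.8 ± 1.35 CPM). Nfkbib, which encodes IkB-beta, had 993 and 971 counts, or 27.9 and 28.6 CPM (28.2 ± 0.546 CPM). Nfkbie, which encodes IkB-epsilon, had 595 and 568 counts, or 16.7 CPM in both (16.7 ± 0.0390 CPM). The order Nfkbia, Nfkbib, Nfkbie held in both libraries without overlap.

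Tnfaip3 encodes A20, which edits ubiquitin chains on signalling proteins and limits IKK activation. It was the lowest member, with 506 and 469 counts, or 14.2 and 13.8 CPM (14.0 ± 0.260 CPM). Ikbkb, the gene of the catalytic subunit IKK-beta, had 2839 and 2771 counts, or 79.6 and 81.7 CPM (80.7 ± 1.45 CPM). In CPM, which is not divided by gene length, Ikbkb lay below the 3 high subunit genes and above the other members in each library.

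**Figure D2:**
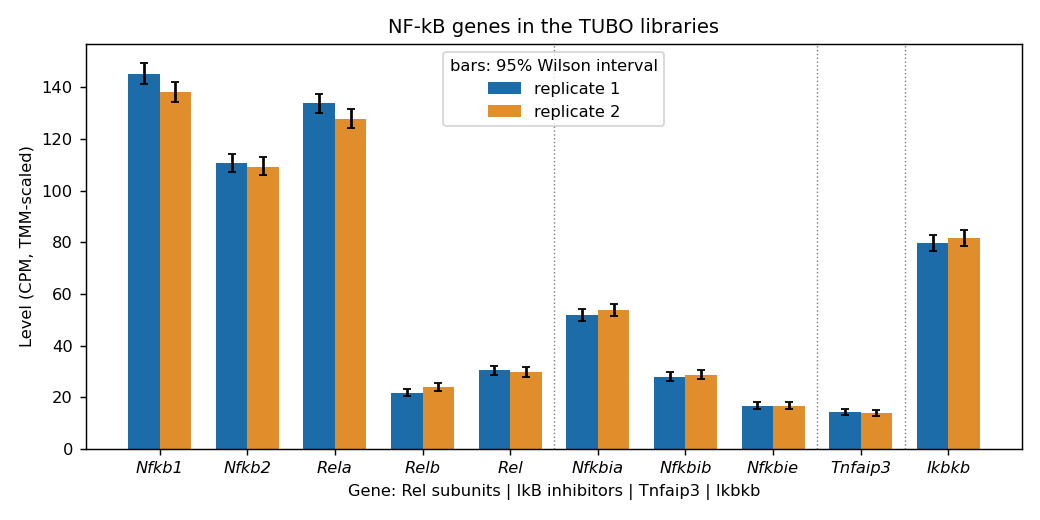
Level of each member (y axis, CPM) in replicate 1 (blue) and replicate 2 (orange), by role from left to right, with 95% Wilson intervals as error bars. Nfkb1, Rela and Nfkb2 lie above 100 CPM in both libraries, and Tnfaip3 at 14.2 and 13.8 CPM is lowest.

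Comparisons between genes need values per length, and here the choice of length mattered. Levels were divided by the union of all annotated exons of each gene and rescaled to TPM. For Nfkb1 and Ikbkb this union is long, 12061 and 19078 bases, against 4117 and 3977 bases in their longest coding transcripts, so the same values divided by the longest coding transcript are given beside them. Rela was the highest member on both scales, at 167 and 158 TPM in replicates 1 and 2 (162 ± 6.61 TPM) over the exon union and at 133 ± 5.03 TPM over the longest coding transcript. Tnfaip3 was the lowest on both, at 7.40 ± 0.200 TPM and 8.78 ± 0.211 TPM.

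Over the exon union, Rela was followed by Nfkbia (125 ± 2.12 TPM), Nfkb2 (91.5 ± 1.48 TPM), Nfkbib (49.7 ± 0.534 TPM), Nfkb1 (44.8 ± 1.98 TPM), Relb (22.4 ± 1.31 TPM), Nfkbie (20.9 ± 0.131 TPM), Ikbkb (16.1 ± 0.152 TPM) and Rel (15.4 ± 0.360 TPM). Neighbours were called apart when both libraries gave the same order and the mean log2 difference was over 2 SD of that difference. Nfkbib and Nfkb1 did not differ beyond their spread (log2 difference 0.15 ± 0.08), nor did Relb and Nfkbie (0.10 ± 0.09) or Ikbkb and Rel (0.07 ± 0.05). The other 6 neighbouring pairs were apart by this rule, by 0.38 ± 0.08 for Rela over Nfkbia up to 1.05 ± 0.01 for Rel over Tnfaip3. An SD of 2 values, here and elsewhere, can fall below counting error and is then no measure of precision. The standard error from counting in replicate 1 was 0.04 for the log2 difference of Rela over Nfkbia and 0.08 for Rel over Tnfaip3. An exact sign test with 2 libraries cannot go below p = 0.5, so no p is given for such differences.

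With the longest coding transcript as length, Nfkb1 stood at 95.4 ± 3.93 TPM and did not differ from Nfkbia at 92.7 ± 1.85 TPM beyond the spread (0.04 ± 0.09). Nfkb2 was at 79.2 ± 1.04 TPM and Ikbkb at 56.2 ± 0.701 TPM. Below these came Nfkbib (38.0 ± 0.523 TPM), Relb (28.6 ± 1.77 TPM), Nfkbie (19.0 ± 0.0613 TPM) and Rel (11.2 ± 0.228 TPM), with all other neighbours apart. Between the 2 lengths only 3 of the 10 genes kept their place in the order. Over the coding exons alone, Rel (22.9 ± 0.311 TPM) stood above Relb (18.3 ± 1.26 TPM), which reverses their order over the other lengths. Nfkbie (19.1 ± 0.0699 TPM) was also above Relb there, but not beyond the spread (0.06 ± 0.09). The places between Rela at the top and Tnfaip3 at the bottom are therefore uncertain, since the table does not show which transcripts gave the reads.

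**Figure D3:**
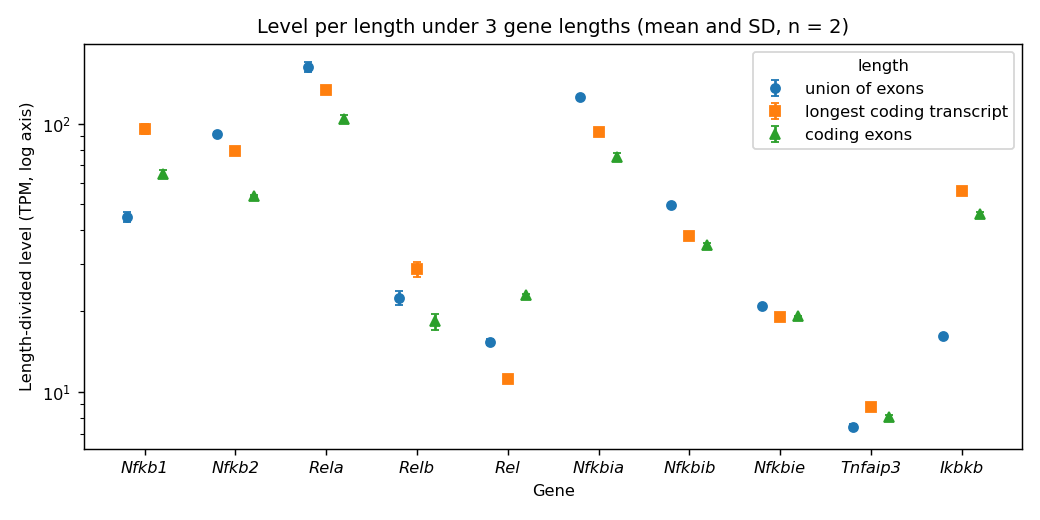
Length-divided level of each member (y axis, TPM, log axis) as mean and SD of 2 libraries, divided by the union of exons (circles), the longest coding transcript (squares) or the coding exons (triangles). Rela is highest and Tnfaip3 lowest under each length. Between the first pair of lengths Nfkb1 moves from 44.8 to 95.4 TPM and Ikbkb from 16.1 to 56.2 TPM. Rel is at 15.4, 11.2 and 22.9 TPM in the order of the lengths, above Relb only over the coding exons.

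Within the subunits, Rela made up 48.3 ± 0.657% of the summed length-divided level over the exon union, Nfkb2 27.2 ± 0.298%, Nfkb1 13.3 ± 0.229%, Relb 6.67 ± 0.571% and Rel 4.57 ± 0.0167%. Over the longest coding transcript the shares were 38.4 ± 0.513% for Rela, 27.4 ± 0.464% for Nfkb1 and 22.8 ± 0.256% for Nfkb2, with 8.24 ± 0.708% for Relb and 3.21 ± 0.0126% for Rel. Over the coding exons alone Rel, at 8.67 ± 0.0413%, was above Relb, at 6.94 ± 0.602%. Rela exceeded Relb by 7.27 ± 0.722 times and Rel by 10.6 ± 0.183 times over the exon union, and by 4.68 ± 0.464 and 12.0 ± 0.207 times over the longest coding transcript. The ratio of Rela to Nfkb1, the genes of the p65 and p50 pair, was 3.62 ± 0.0129 over the exon union and 1.40 ± 0.00497 over the longest coding transcript. The ratio of Nfkb1 to Nfkb2 changed side with the length, being 0.49 ± 0.0138 over the exon union and 1.2 ± 0.0339 over the longest coding transcript.

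Within the inhibitors Nfkbia led on both scales. Nfkbia made up 63.9 ± 0.260% of their summed length-divided level over the exon union and 61.9 ± 0.280% over the longest coding transcript. It exceeded Nfkbib by 2.52 ± 0.0156 and 2.44 ± 0.0152 times on these scales, and Nfkbie by 5.97 ± 0.139 and 4.87 ± 0.113 times. The 3 inhibitor genes together had 0.582 ± 0.0233 of the summed level of the 5 subunit genes over the exon union and 0.431 ± 0.0171 over the longest coding transcript. Nfkbia set against Rela alone gave 0.771 ± 0.0445 and 0.695 ± 0.0401. The A20 gene Tnfaip3 had 0.0592 ± 0.00261 of the level of Nfkbia over the exon union and 0.0948 ± 0.00417 over the longest coding transcript.

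Set against the whole transcriptome, the members covered most of the range of detected genes. By length-divided level over the exon union, Rela lay above 91.9% of 11582 detected genes with a length, Nfkbia above 88.7% and Nfkb2 above 83.4%. Tnfaip3 lay above 17.7%, Rel above 31.5% and Ikbkb above 32.8%. Over the longest coding transcript the share below Ikbkb was 69.0% and that below Nfkb1 83.1%, against 64.3% for Nfkb1 over the exon union. The median of the 10 members was 33.6 TPM, against 28.6 TPM over all detected genes, and 5 of the 10 exceeded the median of detected genes. Over the longest coding transcript the medians were 47.1 and 31.0 TPM.

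The other genes of the IKK complex and the kinases upstream of it were detected throughout, 9 of 9, with a median CPM of 59.6. Chuk, the gene of IKK-alpha, had 77.9 ± 0.00226 TPM over the exon union, and Ikbkg, the gene of the scaffold NEMO, had 28.1 ± 0.650 TPM. Ikbkb had 0.207 ± 0.00196 of the level of Chuk over the exon union and 0.684 ± 0.00649 over the longest coding transcript. Its ratio to Ikbkg was 0.575 ± 0.0188 and 2.38 ± 0.0776 on these scales, so the order of that pair is not settled by these counts. Map3k7, the gene of the IKK-activating kinase TAK1, had 149 ± 2.66 CPM, and its adaptor genes Tab2, Tab3 and Tab1 had 146 ± 7.57, 46.2 ± 2.13 and 21.6 ± 0.867 CPM. The IKK-related kinase genes Tbk1 and Ikbke stood at 72.6 ± 0.0506 and 18.4 ± 0.544 CPM. Map3k14, the gene of NIK, was the lowest of the list in CPM at 11.3 ± 0.235.

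The remaining IkB family and its regulators were detected in 7 of 7 cases, at a median of 6.70 CPM. Nfkbiz, which encodes the nuclear protein IkB-zeta, led with 68.6 ± 3.29 CPM, above Nfkbia in CPM, but at 52.2 ± 2.05 TPM it was below Nfkbia per length over the exon union. Nkiras2, the gene of an IkB-binding small GTPase, had 41.5 ± 0.839 CPM, and Bcl3, whose product binds p50 and p52 dimers in the nucleus, 19.1 ± 0.367 CPM. Commd1 (6.70 ± 0.00841 CPM), Nfkbil1 (6.20 ± 0.157 CPM), the nuclear IkB gene Nfkbid (4.52 ± 0.403 CPM) and Nkiras1 (3.52 ± 0.0185 CPM) followed. All 5 genes of the ubiquitin ligase that marks phosphorylated IkB were detected. The core genes Skp1a (312 ± 17.2 CPM), Cul1 (180.4 ± 7.32 CPM) and Rbx1 (88.7 ± 3.26 CPM) and the substrate receptor genes Fbxw11 (130.3 ± 3.22 CPM) and Btrc (25.3 ± 0.249 CPM) make up this list.

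Of 9 genes of A20 partners and other negative regulators 8 were detected, all but Tnip3 at 17 and 13 counts. Tax1bp1, an A20 adaptor, had 269 ± 1.30 CPM, and Itch, a ubiquitin ligase that works with A20, 144 ± 2.06 CPM. Rnf11, another A20 partner, had 54.3 ± 2.77 CPM, while the A20-binding inhibitors Tnip1 and Tnip2 had 12.9 ± 0.785 and 11.7 ± 0.898 CPM. The deubiquitinase genes Otud7b, Cyld and Otulin had 65.2 ± 1.55, 61.2 ± 1.5 and 18.9 ± 1.05 CPM. Of its 6 genes with a promoter window 4 held a kappa B match, namely Tnip1, Tnip3, Tax1bp1 and Cyld, beside 5.14% of all genes. In the other lists of the pathway a match was found in 2 of 5 genes of the IkB family, 1 of 8 of the IKK list, 0 of 3 of the IkB ubiquitin ligase, 1 of 16 adaptor and ligase genes, 3 of 15 receptor genes and 1 of 9 ligand genes.

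Of 18 adaptor and ubiquitin ligase genes 16 were detected. The highest were the kinase gene Irak1 (154 ± 4.01 CPM) and Rbck1, a gene of the linear-ubiquitin ligase complex (88.0 ± 0.0561 CPM). The ubiquitin-conjugating enzyme gene Ube2n (87.6 ± 4.63 CPM) and Traf6 (75.4 ± 0.562 CPM) came next. Traf5 (32 and 30 counts) and Traf1 (3 and 0 counts) were lowest. Of 17 receptor genes 10 were detected, led by the interleukin-1 co-receptor gene Il1rap (160.4 ± 1.19 CPM), the tumour necrosis factor receptor gene Tnfrsf1a (141 ± 3.0 CPM), the double-stranded RNA sensor gene Tlr3 (135 ± 4.35 CPM) and the lymphotoxin receptor gene Ltbr (90.6 ± 2.06 CPM). Il18r1 and Tlr9 had no count. Il1r1, the partner of Il1rap in the interleukin-1 receptor, had 3 counts in each library. This gene lies outside the naming rule and was chosen after its values were seen.

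Ligand genes were low. Of 11, Il33 (3.39 ± 0.755 CPM) and Tnf (1.89 ± 0.209 CPM) were detected. Tnfsf12 had 21 and 27 counts, Il1a had 8 and 10, and Il1b and Tnfsf11 had none. Target genes were uneven, with 10 of 22 detected and a median CPM of 0.165. Lcn2 (2803 ± 24.1 CPM), the early response gene Ier3 (324 ± 0.742 CPM), the survival gene Bcl2l1 (238 ± 1.33 CPM) and Tnfaip2 (138 ± 4.0 CPM) led, and the adhesion molecule gene Vcam1 and the gelatinase gene Mmp9 had no count. Other regulators also act on most of these genes. Of 15 of these textbook target genes with a promoter window 8 held a kappa B match, beside 5.14% of all genes with a window. Detected were 6 of these 8 (Cxcl1, Cxcl2, Ccl20, Sod2, Bcl2l1 and Ier3), and 3 of the 7 without a match (Lcn2, Tnfaip2 and Gadd45b). Over all genes of the table with a window, 51.7% with a match and 46.0% without were detected. Among the A20 partners 3 of 4 with a match and 2 of 2 without were detected, and among the ligands 0 of 1 and 2 of 8. No list is called enriched or depleted from these counts, which stand beside 37.7% detected over the table.

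**Figure D4:**
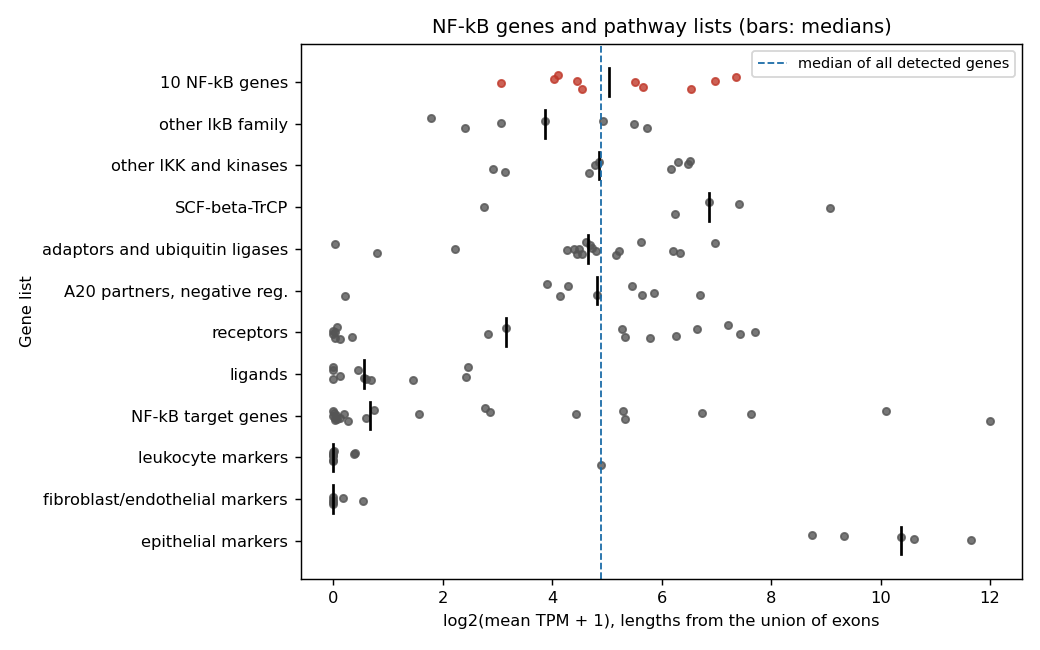
Length-divided level of each gene (x axis, log2 of mean TPM + 1, exon union) for the 10 members (red) and the pathway and marker lists (grey, y axis), with list medians as black bars and the median of all detected genes as a dashed line. The medians of the kinase, adaptor and A20 partner lists lie near the dashed line, while 9 of 11 ligand genes and 12 of 22 target genes were not detected.

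The libraries were then set against each other. An exact binomial test was run on each gene. It sets the libraries, not conditions, against each other and covers counting error alone. By this test 0 of 10 members were called at a Benjamini-Hochberg adjusted p under 0.05, while 8.13% of the 13336 genes tested were (4.46% higher and 3.67% lower in replicate 1). At an unadjusted p under 0.05 the binomial test gave 2 of 10 members, Nfkb1 and Rela, beside 19.9% of all genes tested. The share over all genes is above what counting error alone gives, so a binomial call need not exceed the spread between replicates, which may be technical only. With a dispersion taken from the difference of these same libraries, which makes few calls by construction, edgeR's exact test called 0 of 10 members and 0.15% of all genes tested at an adjusted p under 0.05. At an unadjusted p under 0.05 it gave 0 of 10 members and 5.6% of all genes. The log2 ratio of replicate 1 over replicate 2 was positive for 5 members and negative for 5.

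The ratios were 0.07 for Nfkb1 (exact binomial adjusted p = 0.107), 0.07 for Rela (0.19), 0.02 for Nfkb2 (0.881), 0.03 for Rel (0.881) and 0.04 for Tnfaip3 (0.905). On the other side were Relb at -0.14 (0.277), Nfkbia at -0.05 (0.617), Nfkbib at -0.04 (0.835), Ikbkb at -0.04 (0.683) and Nfkbie at -0.005 (adjusted p = 1.0). The widest of these, that of Relb, rested on 775 and 811 counts. The median absolute log2 ratio was 0.04 over the members and 0.07 over all genes tested. These medians are not matched for level, since the lowest member had 14.0 CPM. Of the 13336 genes tested, only 11692 reached 1 CPM in both libraries, and counting error is wider at low counts. With total counts in place of TMM factors the ratio of Nfkb1 was 0.09 and passed the threshold (exact binomial adjusted p = 0.0295), where 9.71% of all genes tested were called. Of 70 pathway genes tested 4 were called by the binomial test (5.71%), beside 8.13% over all genes. Tab2 (log2 ratio 0.11, adjusted p = 0.00533) and Cul1 (0.08, adjusted p = 0.0222) were higher in replicate 1, and Skp1a (-0.11, adjusted p = 7.29e-07) and Ube2n (-0.11, adjusted p = 0.0461) were lower.

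**Figure D5:**
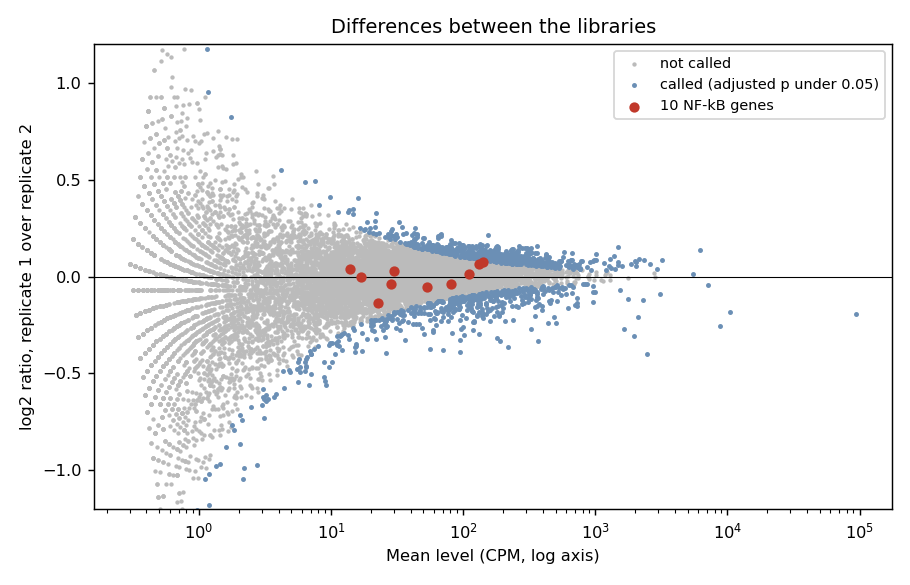
Log2 ratio of replicate 1 over replicate 2 (y axis) against mean level (x axis, CPM, log axis) for the 13336 genes tested, with called genes in blue, other genes in grey and the 10 members in red. The members lie between -0.14 and 0.07 and none is called, and 13 genes lie outside the plotted range of 1.2 to either side of 0.

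By position (GRCm38), the members lie on 8 chromosomes. Rela (19:5637483-5648130) and Nfkb2 (19:46304320-46312385) share chromosome 19, and Relb (7:19606217-19629438) and Nfkbib (7:28758251-28767512) share chromosome 7. Exons of Nfkb2 overlap those of the noncoding gene AC114539.1, for which no row was used here, over 531 bases and those of Psd over 299 bases, both on the opposite strand, and Nfkb2 had 3939 and 3708 counts against 781 and 757 for Psd. Exons of Nfkbib overlap Ccer2 (3 counts in each library) over 314 bases and Sirt2 (3146 and 2935 counts) over 42 bases, both on the opposite strand. Of the transcript windows of 50 bases, 14.9% in Nfkb2 and 12.6% in Nfkbib also occurred in transcripts of other genes, on either strand, and 0.674% or less in each other member. Since the sources used here do not give the strand setting of the counting, the share of Nfkb2 and Nfkbib reads that these overlaps touch was not tested.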

How the data were processed

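Per the labels' protocols, RNA was made into libraries with a stranded kit for mRNA. The authors deposited raw counts per gene symbol for 2 libraries. STAR 2.7.9a, featureCounts and mm10 appear in the submitters' processing notes without a stated role. Neither annotation release nor strand setting is given in the sources used here. Columns were assigned by library name.

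CPM values used TMM factors, 1.005 for replicate 1 and 0.995 for replicate 2 (edgeR 4.0.16, R 4.3.3). TPM was computed from GENCODE M21 exonic lengths for the 98.3% of symbols with a single match, which hold 99.4% of the counts. The libraries were compared gene by gene with an exact binomial test (two-sided, at the TMM effective sizes), with Benjamini-Hochberg adjustment over the 13336 genes kept by filterByExpr. A single group leaves no contrast for the quasi-likelihood test. The binomial test was checked on data simulated with counting noise alone, which is less than the noise between these libraries. Promoter sequences are from RefSeq (GRCm38.p6). DESeq2 1.42.0 gave alternative size factors.

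Members, lists, tests and alternatives were chosen with earlier results of these data known. All members are named, as are all genes of lists of up to 9 and the 4 highest and 2 lowest by CPM of longer lists (where more than 2 had no count, 2 of these). Other genes, such as target genes named for a kappa B match or its absence and pathway genes called between libraries, were taken after their values were seen.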

Additional observations from a re-analysis of the deposited data

How the results depend on the processing

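Detection of all 10 members did not change with total counts, DESeq2 or upper-quartile factors, the removal of Gm26917 and Gm42418 from the totals, or minimums of 0.5 and 5 CPM. Each minimum lay far below the lowest member, Tnfaip3 at 14.0 CPM, so this outcome was fixed by the levels. The levels did move with the removal of Gm26917 and Gm42418, which left totals of 31964135 (replicate 1) and 30310404 counts (replicate 2). All members rose, for example Nfkb1 from 142 to 158 CPM, Tnfaip3 from 14.0 to 15.7 CPM and Rela from 162 to 187 TPM. These shifts exceed the SDs given with the levels. TMM and the other factors cancel in TPM, so these choices move no ratio between genes. The choice of length did. For the longest coding transcript and the coding length, in that order, the ratios were 0.431 and 0.491 for the summed inhibitors over the summed subunits, 4.68 and 5.71 for Rela over Relb, 12.0 and 4.55 for Rela over Rel, 1.2 and 1.21 for Nfkb1 over Nfkb2 (the other side of 1 from the exon union), 1.40 and 1.60 for Rela over Nfkb1, 2.44 and 2.14 for Nfkbia over Nfkbib, 4.87 and 3.94 for Nfkbia over Nfkbie, 0.684 and 0.736 for Ikbkb over Chuk, 2.38 (reversed) and 0.754 for Ikbkb over Ikbkg, 0.695 and 0.723 for Nfkbia over Rela, and 0.0948 and 0.108 for Tnfaip3 over Nfkbia. With either length 3 members kept their place in the order. The members' median log2(TPM + 1) exceeded that of detected genes by 0.15 over the exon union, and by 0.56 and 0.39 with the other lengths. Ligand genes detected fell to 0 at a minimum of 5 CPM.

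Between the libraries, total counts gave 1 called member, Nfkb1, and edgeR's exact test gave 20 called genes in place of 1084. The log2 ratio of Nfkbie, near 0, changed sign with total counts (0.0108) and with DESeq2 size factors (0.00091). Leaving out either library gave 0.565 to 0.598 for the summed inhibitors over the summed subunits and 6.76 to 7.78 for Rela over Relb. With 2 libraries such values lie within 1 SD by construction. No paired analysis was possible because there is only 1 group. Depth limits the ligand and target genes with a few counts, whose levels near the floor cannot be ordered.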
